A study of Homo sapiens with 6 samples.

Results

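HOX genes encode homeodomain transcription factors that lie in 4 clusters, HOXA to HOXD, and they were read here as every row of the count table whose symbol is HOXA, HOXB, HOXC or HOXD followed by a number. This gave 38 coding genes among 21676 listed: 11 of HOXA, 10 of HOXB, 8 of HOXC and 9 of HOXD. HOXC12 was not analysed here. The RNA came from the 83 cell line, a line that the submitters call a SACC cell, an abbreviation usually read as salivary adenoid cystic carcinoma. The control group (treatment label "control") and the group labelled as overexpressing ApoD, a secreted lipocalin, had 3 libraries each. The labels give neither the vector, the control construct, the culture time nor whether a group is 1 clone, and they do not say that libraries of a group were separate cultures, so p-values measure only the spread between these libraries.

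The number in a HOX gene's name is its paralogue group, which follows the order of the genes along the chromosome. In the embryo, genes with low numbers are switched on towards the head and genes with high numbers towards the tail and the ends of the limbs, an arrangement called collinearity. Adult cells and tumours often keep part of a HOX pattern, and HOX proteins bind DNA together with PBX and MEIS cofactors, while Polycomb and Trithorax complexes hold the clusters silent or active. Below, groups 1 to 3 are called anterior, 4 to 8 central and 9 to 13 posterior.

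The promoters of 4 posterior genes are shown because these genes form 2 pairs, HOXA11 with HOXA13 and HOXD13 with HOXD10, whose members moved in opposite directions within 1 cluster. The sequences are RefSeq's (GRCh38.p14), 5′ to 3′ on the gene's strand, from 250 bases before to 50 bases after the annotated start. Capitals mark matches on either strand to the TATA box (TATAAA), the CCAAT box (CCAAT), the GC box (GGGCGG) or a motif bound jointly by HOX and PBX proteins (TGATNNAT).
HOXA11, chr7:27185183-27185482, minus strand: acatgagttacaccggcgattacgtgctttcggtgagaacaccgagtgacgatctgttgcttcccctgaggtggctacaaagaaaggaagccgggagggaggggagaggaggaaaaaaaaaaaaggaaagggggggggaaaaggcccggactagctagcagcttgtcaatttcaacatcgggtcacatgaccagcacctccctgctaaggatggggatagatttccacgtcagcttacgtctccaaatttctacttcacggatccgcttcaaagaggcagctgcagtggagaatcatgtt
HOXA13, chr7:27200042-27200341, minus strand: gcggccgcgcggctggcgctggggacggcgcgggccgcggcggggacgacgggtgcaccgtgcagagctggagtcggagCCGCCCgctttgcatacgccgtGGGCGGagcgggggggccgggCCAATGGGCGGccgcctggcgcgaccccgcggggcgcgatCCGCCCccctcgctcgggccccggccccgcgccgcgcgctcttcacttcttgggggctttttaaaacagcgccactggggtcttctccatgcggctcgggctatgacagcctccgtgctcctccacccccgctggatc
HOXD10, chr2:176116528-176116827, plus strand: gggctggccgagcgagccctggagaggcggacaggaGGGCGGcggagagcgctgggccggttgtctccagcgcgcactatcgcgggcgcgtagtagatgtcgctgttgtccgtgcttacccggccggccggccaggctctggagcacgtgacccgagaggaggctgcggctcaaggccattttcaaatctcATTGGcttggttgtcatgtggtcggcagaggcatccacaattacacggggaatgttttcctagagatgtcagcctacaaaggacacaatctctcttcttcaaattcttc
HOXD13, chr2:176092471-176092770, plus strand: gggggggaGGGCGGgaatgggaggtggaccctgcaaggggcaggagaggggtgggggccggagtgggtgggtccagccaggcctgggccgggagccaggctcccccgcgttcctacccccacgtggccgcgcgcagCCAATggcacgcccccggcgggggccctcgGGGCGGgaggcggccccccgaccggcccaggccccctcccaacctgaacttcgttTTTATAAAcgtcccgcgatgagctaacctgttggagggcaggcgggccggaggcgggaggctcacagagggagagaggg
The HOXA11 window held 51.3% G and C and none of the 4 motifs. The HOXA13 window held 76.3% G and C, 4 GGGCGG matches and 1 CCAAT match. The HOXD10 window had 60% G and C with 1 match to each of these motifs, and the HOXD13 window 74% with 2 GGGCGG, 1 CCAAT and 2 TATAAA matches, which overlap each other. Of 27305 promoter windows of this length, 44.6% held GGGCGG, 35.7% CCAAT, 12.0% TATAAA and 7.60% TGATNNAT. A match describes these letters and does not show a bound site. The end of the HOXD13 window was found in no GENCODE transcript of that gene, unlike the ends of the other 3.

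The libraries held 37542568 to 40416964 counts. APOD had 2 to 9 counts in the control libraries and 528 to 628 with ApoD overexpression, in the direction of the labels. Of 8 epithelial markers, all tested, 1 rose and 4 fell. Over all tested genes 24.2% were higher and 24.6% lower (edgeR adjusted p under 0.05). The keratin KRT8 had 43173 to 65627 counts per library, while the salivary acinar marker AQP5 had 0 to 5. MYB, the transcription factor often rearranged in adenoid cystic carcinoma, had 198 to 484 counts. Of 6 markers of this carcinoma that were looked for, only 3 had a row in the count table. KIT, SOX10 and NTRK3 were not analysed here. Of other cell types' markers, 3 tested endothelial genes fell. Their summed level was 8.01 to 13.3 CPM (counts scaled to a common library depth) in controls and 1.35 to 2.30 CPM with ApoD overexpression. The median of their mean counts was 60.8, and of 861 tested genes with mean counts of 50 to 100, 336 fell and 40 rose. Both tested fibroblast genes also fell (26.8 to 32.6 against 9.83 to 13.8 CPM for the list), with COL1A2, DCN and LUM at 0 or 1 count in every library. The only tested leukocyte marker, CD68, rose with TMM scaling but did not pass with library totals (adjusted p = 0.126; 15.7 to 32.9 against 36.7 to 38.7 CPM for the list), and the defining leukocyte gene PTPRC had 0 counts in 4 of the 6 libraries and at most 12. The part of other cells in the HOX results was not tested.

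HOX output in the controls came mainly from the posterior genes. Levels are compared between genes only as FPKM, counts scaled to the length of the gene model and the depth of the library. HOXC10 stood highest at 11.8 ± 0.569 FPKM, followed by HOXD10 at 11.4 ± 1.04, HOXA10 at 11.2 ± 1.0, HOXD11 at 10.7 ± 0.971 and HOXB7 at 9.51 ± 1.41 (SD, n = 3). Neighbours in this order did not differ beyond their spread. HOXC10 lay above 68.4% of all tested genes, so even the most abundant HOX genes were of moderate level. HOXD9 stood at 6.70 ± 0.220 FPKM and HOXC13, a hair follicle regulator, at 4.88 ± 0.817. In all, 21 members reached a mean of 1 FPKM in the controls, 7 in HOXA, 4 in HOXB, 6 in HOXC and 4 in HOXD, and 11 of the 21 were posterior. The gene model behind HOXB3 is 18337 bases long and that behind HOXD13 is 6442, against 1363 for HOXB7, so FPKM values of the first pair would be higher with shorter models.

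**Figure D1:**
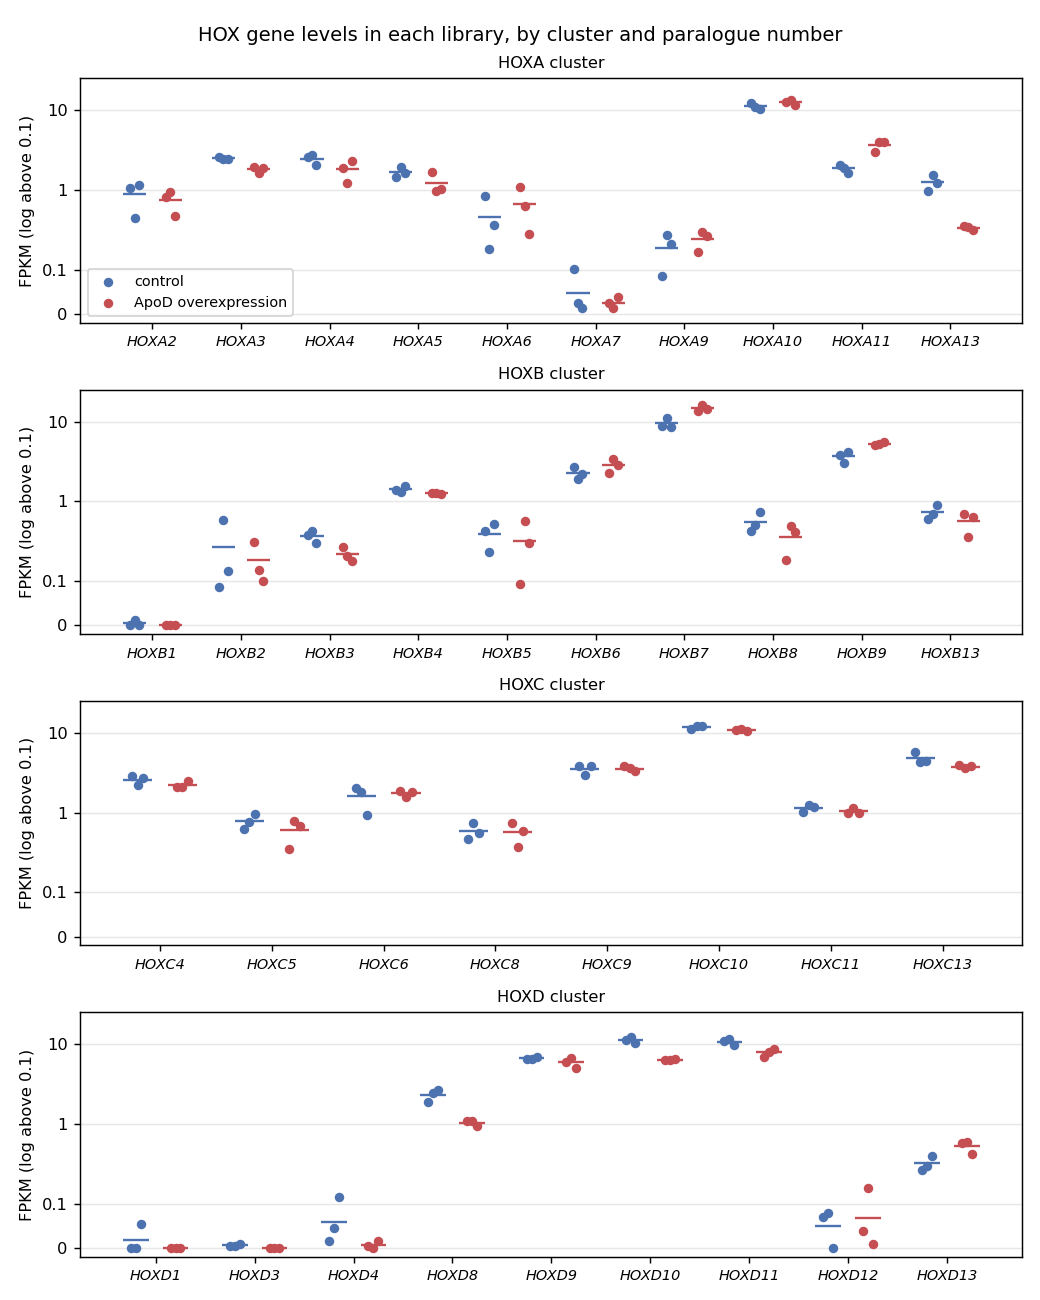
FPKM of HOX genes in each library (vertical axis logarithmic above 0.1 and linear below), with controls in blue, ApoD overexpression in red and a bar at the mean of 3 libraries. The posterior genes carry most of the highest values, with HOXC10, HOXD10, HOXA10 and HOXD11 above 10 FPKM on average in controls, while HOXD1 to HOXD4 and HOXB1 lie near 0.

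Several members were close to silent. HOXB1 had 1 count in all 6 libraries together. HOXD3 had 1, 1 and 2 counts in controls and 0 in each ApoD overexpression library, and HOXD1 had 4 counts, all in control replicate 3. HOXD4 had 3, 9 and 24 counts in controls and 1, 0 and 3 with ApoD overexpression. HOXA7 had 1 to 8 counts per library, HOXD12 0 to 15 and HOXB2 6 to 40. These 7 members did not pass the filter on low counts and were not tested. Of these, 5 were anterior or central genes of HOXB and HOXD. HOXD12 was posterior, and its neighbours HOXD11 and HOXD13 had 481 to 781 and 67 to 149 counts per library.

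Of the 31 tested members, 4 were higher with ApoD overexpression (HOXA11, HOXB7, HOXB9 and HOXD13) and 5 were lower (HOXA3, HOXA13, HOXB3, HOXD8 and HOXD10). That is 9 of 31 at an adjusted p under 0.05 in edgeR's quasi-likelihood test, 29.0%, beside 48.8% of all 14629 tested genes, where 24.2% were higher and 24.6% lower. Library totals in place of TMM scaling gave 4 HOX genes higher and 6 lower, and 2580 higher and 4435 lower of all tested genes. With each library's trend with abundance removed, 5 HOX genes were higher and 3 lower. For 12 of the 31, 5 higher and 7 lower, no control library shared the range of the ApoD overexpression libraries, beside 58.7% of all tested genes (29.0% higher and 29.7% lower). The median log2 fold change of the members was −0.10, against −0.02 over all tested genes. With the abundance trend removed the members' median changed sign to 0.22, against 0.00 over all tested genes. RNA from fewer cells and less RNA per cell cannot be told apart in these bulk libraries.

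**Figure D2:**
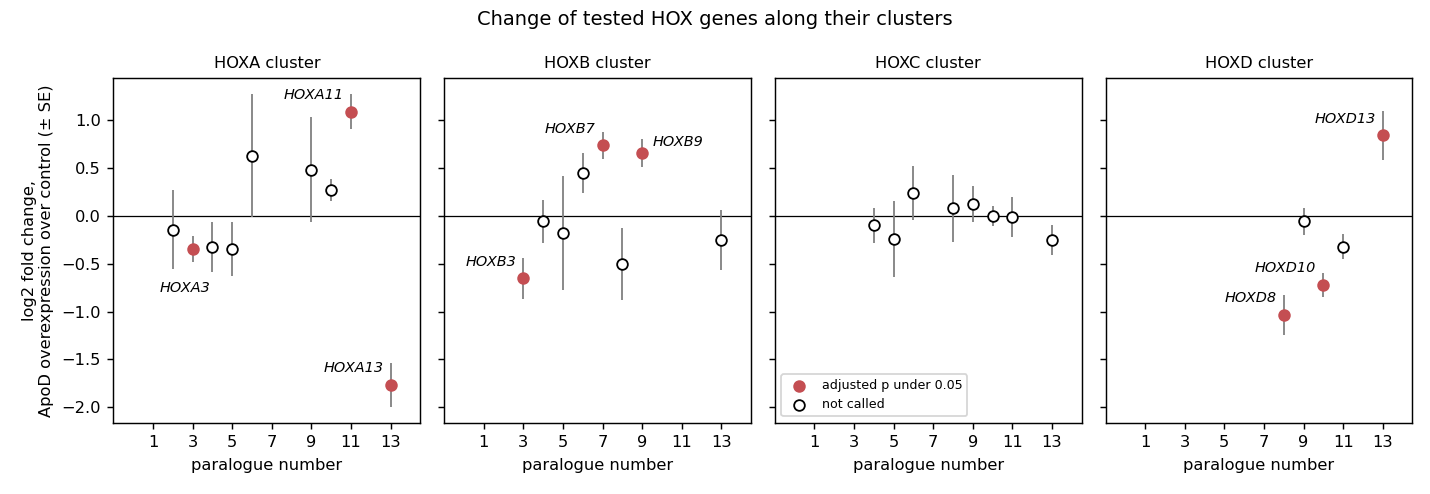
Log2 fold change of tested HOX genes (ApoD overexpression over control, ± SE) against paralogue number, with filled points for an adjusted p under 0.05. HOXA11 and HOXA13 stand at opposite ends of the HOXA panel, HOXB7 and HOXB9 lie above 0, HOXD8 and HOXD10 below it, and no HOXC gene is filled.

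In HOXA, 1 of 10 tested members rose and 2 fell. HOXA11, which patterns the forelimb and the uterus, had 218, 198 and 170 control counts and 322, 398 and 427 with ApoD overexpression. Every ApoD overexpression library lay above every control, a 2.13-fold rise (log2 fold change 1.09 ± 0.18 SE, edgeR adjusted p = 0.000469). HOXA13, which patterns the hand, foot and urogenital tract, had 189, 303 and 240 counts in controls and 71, 64 and 63 with ApoD overexpression. Its level fell 3.40-fold, the largest change among the tested members (log2 fold change −1.77 ± 0.23 SE, edgeR adjusted p = 8.52e-05). Both genes' promoters are printed above. HOXA10, a regulator of uterine development, had 1234, 1110 and 1021 counts in controls and 1287, 1262 and 1185 with ApoD overexpression. Its CPM values did not overlap between groups, but its log2 fold change of 0.27 ± 0.11 missed the threshold (edgeR adjusted p = 0.0681), and it passed without control replicate 1 (0.36, adjusted p = 0.0236).

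The anterior end of HOXA lay lower. HOXA3, which acts in the pharyngeal arches and the thymus, had 523, 503 and 490 counts in controls and 407, 315 and 381 with ApoD overexpression (log2 fold change −0.35 ± 0.13 SE, edgeR adjusted p = 0.0462). This call was lost when any 1 of the 6 libraries was left out (adjusted p = 0.0718 to 0.116) and with the abundance trend removed (0.176). HOXA2, HOXA4 and HOXA5 had −0.15, −0.33 and −0.34 on the log2 scale, and none passed. HOXA6 and HOXA9, with 7 to 44 counts per library, had log2 fold changes of 0.63 ± 0.64 and 0.48 ± 0.54, both smaller than their SE. RefSeq gene models of HOXA3 span HOXA4, HOXA5 and HOXA6, and counts at shared positions may be split between them.

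In HOXB, HOXB7 and HOXB9 rose, 1 gene fell and 5 did not pass. HOXB7, which is raised in several carcinomas, had 472, 601 and 456 counts in controls and 741, 823 and 778 with ApoD overexpression. The groups did not overlap (log2 fold change 0.74 ± 0.14 SE, edgeR adjusted p = 0.00111), and its mean of 14.6 ± 1.34 FPKM made it the highest HOX gene of that group. HOXB9, a posterior gene of the trunk and mammary gland, had 387, 309 and 413 counts in controls and 536, 511 and 565 with ApoD overexpression (log2 fold change 0.66 ± 0.14 SE, edgeR adjusted p = 0.00254). Between both genes lies HOXB8, with 68, 83 and 119 counts against 31, 75 and 67. Its log2 fold change of −0.51 ± 0.37 did not pass. HOXB6, on the other side of HOXB7, had 237, 168 and 188 counts against 205, 283 and 254 (log2 fold change 0.45 ± 0.21 SE, edgeR adjusted p = 0.0987). It passed with the abundance trend removed (0.72, adjusted p = 0.0200), without control replicate 1 (0.62, adjusted p = 0.0294) and without ApoD overexpression replicate 1 (0.62, adjusted p = 0.0354).

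HOXB3, an anterior gene of the hindbrain and blood progenitors, had 275, 309 and 213 counts in controls and 196, 142 and 131 with ApoD overexpression. Its level fell 1.57-fold (log2 fold change −0.65 ± 0.21 SE, edgeR adjusted p = 0.0231). Leaving out control replicate 2 raised the adjusted p to 0.108, leaving out ApoD overexpression replicate 2 or 3 to 0.0542 or 0.0926, and removing the abundance trend to 0.163 (log2 fold change −0.37). The RefSeq model of HOXB3 spans HOXB4, and shared counts may be split between them. HOXB4, HOXB5 and HOXB13, the last a marker of prostate epithelium, stood at −0.06, −0.18 and −0.26 on the log2 scale, none of them past the threshold.

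In HOXC none of the 8 tested members passed in edgeR, none had an unadjusted p under 0.05, and DESeq2 also called 0. HOXC10 had 869, 950 and 931 counts in controls and 871, 828 and 839 with ApoD overexpression, a log2 fold change of 0.00 ± 0.10 (SE). HOXC11 was equally close to 0, at −0.01 ± 0.21, and HOXC9 stood at 0.12 ± 0.19. HOXC13 had 541, 406 and 409 counts in controls and 374, 320 and 357 with ApoD overexpression. Its CPM values did not overlap, the log2 fold change was −0.25 ± 0.16 (edgeR adjusted p = 0.195), and limma on filtered FPKM put it just past the threshold (adjusted p = 0.0494). HOXC4, HOXC5, HOXC6 and HOXC8 ranged from −0.24 to 0.24. RefSeq gene models of HOXC4, HOXC5 and HOXC6 overlap each other, so their counts may be split between them. Whether HOXC differs from the other clusters was not tested.

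In HOXD, 2 of 5 tested members fell and 1 rose. HOXD10, a regulator of hindlimb motor neurons, had 795, 882 and 722 counts in controls and 458, 421 and 462 with ApoD overexpression. The groups lay well apart (log2 fold change −0.72 ± 0.12 SE, edgeR adjusted p = 0.000492). HOXD10 went from the second to the fifth highest HOX gene by FPKM. HOXD8 had 193, 252 and 271 counts in controls and 114, 108 and 99 with ApoD overexpression, a 2.05-fold fall (log2 fold change −1.04 ± 0.20 SE, edgeR adjusted p = 0.00136). HOXD9 lies between them, with 482, 490 and 505 counts against 448, 476 and 381. Its log2 fold change was −0.06 ± 0.14. HOXD11 had 729, 781 and 639 counts against 481, 513 and 591. Its groups did not overlap, and its change of −0.32 ± 0.13 missed the threshold with TMM scaling (edgeR adjusted p = 0.0660) but passed with library totals (−0.44, adjusted p = 0.0171).

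HOXD13, the last gene of its cluster and a partner of HOXA13 in the distal limb, moved the other way. It had 67, 75 and 100 counts in controls and 149, 142 and 108 with ApoD overexpression (log2 fold change 0.84 ± 0.26 SE, edgeR adjusted p = 0.0173). Control replicate 3 and ApoD overexpression replicate 3 were the nearest libraries of both groups. Leaving out replicate 2 of either group ended the call (adjusted p = 0.0595 for the control, 0.0596 for ApoD overexpression), and the rise was larger, 1.26, with the abundance trend removed. By contrast, HOXA11, HOXB7, HOXB9, HOXD8 and HOXD10 kept their direction and call under all 15 alternatives and HOXA13 under the 13 that gave it a value.

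Position in the cluster did not sort the changes by sign alone. Of 4 tested anterior genes, 0 rose and 2 fell (edgeR; both had an unadjusted p under 0.05, and DESeq2 also called 2), with all 4 log2 fold changes below 0, except that HOXA2 stood at 0.38 with the abundance trend removed. In that alternative no anterior gene was called (0 of 4). Of 13 tested central genes 1 rose and 1 fell, and of 14 tested posterior genes 3 rose and 2 fell. In edgeR with TMM scaling 50% of tested anterior, 15.4% of central and 35.7% of posterior genes were called. That stands beside 48.8% of all tested genes, 24.2% higher and 24.6% lower. By paralogue group, the tested genes of groups 3, 4 and 5 all lay below 0 and those of group 6 all above 0. Groups 3 to 6 held only 2 or 3 tested genes each. Of all 14629 tested genes 7508 lay below 0, and of the 4044 with a mean count under 200 it was 2948. With the abundance trend removed groups 4 and 5 lay above 0, at 0.03 to 0.36 and 0.09 to 0.51 (log2), while groups 3 and 6 kept their side. In groups 4, 5 and 6, edgeR and DESeq2 called 0 genes, and 0 had an unadjusted p under 0.05 in edgeR. Group 13 was the only group with calls in opposite directions. It held the fall of HOXA13 and the rise of HOXD13, with HOXB13 and HOXC13 not called. Group 11 held the rise of HOXA11 beside HOXD11 at −0.32, which was not called, and group 10 the fall of HOXD10 beside HOXA10 at 0.27 and HOXC10 at 0.00, neither of them called. Both tested genes of group 3, HOXA3 and HOXB3, were among those that fell.

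Count ratios of pairs within a library do not depend on the scaling of libraries. HOXA11 to HOXA13 stood at 1.15, 0.653 and 0.708 in controls and 4.54, 6.22 and 6.78 with ApoD overexpression. HOXD13 to HOXD10 stood at 0.0843, 0.0850 and 0.139 in controls and 0.325, 0.337 and 0.234 with ApoD overexpression. HOXA13 to HOXD13, a ratio between clusters, went from 2.82, 4.04 and 2.40 to 0.477, 0.451 and 0.583, so the more counted gene of this pair changed from HOXA13 to HOXD13. HOXA10 to HOXD10 went from 1.41 ± 0.147 to 2.79 ± 0.217 (SD, n = 3). Of 10 ratios, chosen with the values known, 9 did not overlap between groups, and HOXC13 to HOXC10 did. Singly, 58.7% of all tested genes did not overlap. An exact two-sided permutation test gave p = 0.1 for those 9 ratios (0.111 after Benjamini-Hochberg adjustment over the 10). That p of 0.1 is the smallest that 3 against 3 libraries allow. Because the pairs were chosen with the values known, this test adds nothing to the results of the single genes.

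**Figure D3:**
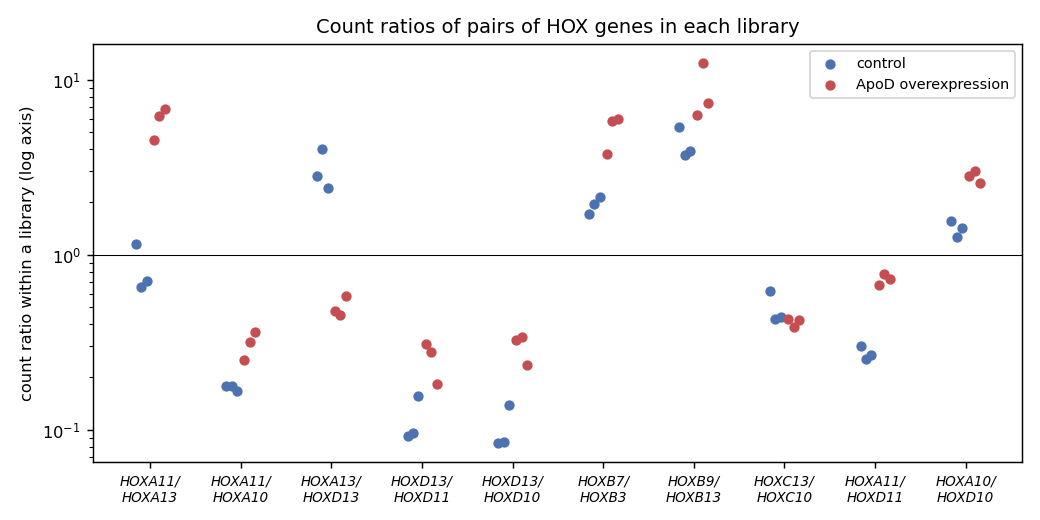
Count ratio of 10 pairs of HOX genes in each library (log axis), with controls in blue and ApoD overexpression in red. The HOXA11 to HOXA13 ratio moves from near 1 to between 4.54 and 6.78, while the libraries of both groups share a range for HOXC13 to HOXC10.

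The summed level of all HOX genes was 225 ± 9.94 CPM in controls and 222 ± 6.64 CPM with ApoD overexpression (SD, n = 3), and the libraries overlapped. With library totals it stood at 0.912 of the control level and as FPKM at 0.937, in both cases with no overlap. A cluster's share within a library does not depend on how libraries are scaled to each other. HOXB made up 17.7%, 18.2% and 18.8% of the HOX sum in controls and 22.4%, 24.7% and 23.8% with ApoD overexpression. HOXD made up 24.4%, 26.6% and 25.6% in controls and 19.3%, 20.5% and 19.6% with ApoD overexpression. Neither cluster's shares overlapped between groups. HOXA, at 32.2% ± 1.13 and 32.9% ± 1.24, and HOXC, at 23.9% ± 0.763 and 23.7% ± 0.574, overlapped. The anterior genes' share went from 15.0% ± 0.518 to 11.7% ± 1.76 and the central genes' share from 21.4% ± 0.498 to 23.8% ± 0.965, neither with overlap. That of the posterior genes was 63.6% ± 0.264 and 64.5% ± 0.968, with overlap. These sums are led by the most counted members and were not tested. Mean HOXB7 went from 12.5 to 20.8 CPM, while the central sum went from 48 to 52.9 CPM. Of 13 tested central genes 5 had a log2 fold change above 0 and 8 below 0. The HOXB sum went from 41.0 to 52.6 CPM, and mean HOXB9 from 9.04 to 14.25 CPM. Of 8 tested HOXB genes 3 lay above 0 and 5 below 0. By FPKM, which weights short genes more, the posterior share was 65.8% ± 0.371 in controls and 63.3% ± 0.484 with ApoD overexpression, without overlap. Library totals moved the median change over all tested genes to −0.13 (log2).

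**Figure D4:**
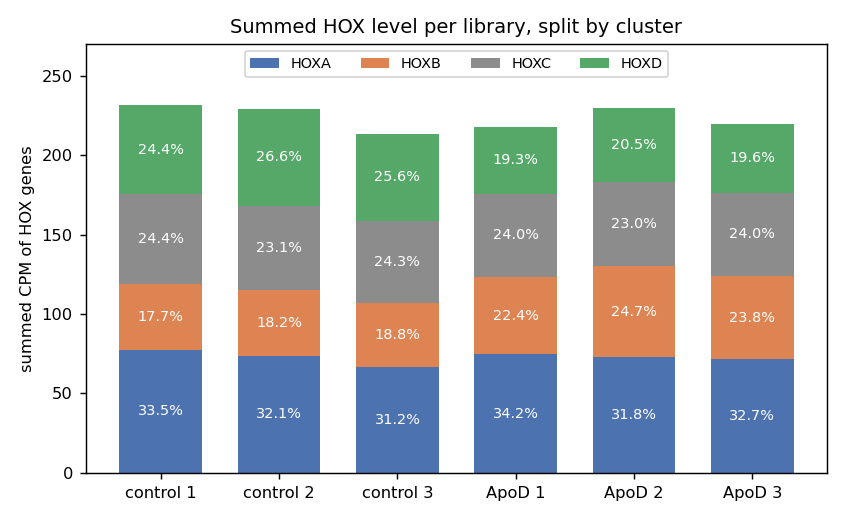
Summed CPM of the HOX genes in each library, stacked by cluster, with each cluster's share of the library's HOX sum in percent. The HOXB share is 17.7% to 18.8% in controls and 22.4% to 24.7% with ApoD overexpression, and the HOXD share 24.4% to 26.6% against 19.3% to 20.5%.

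In these libraries, rare transcripts as a whole were lower with ApoD overexpression. Among 4044 tested genes with a mean count under 200, 1277 fell and 201 rose, 36.5% in all, with a median log2 fold change of −0.56. The 16 HOX genes in that range had 2 falls (HOXA13 and HOXD8), 1 rise (HOXD13) and a median of −0.16. For 1545 tested genes with mean counts of 200 to 500 the median was −0.16, and for the 10 HOX genes there it was −0.08. The falls of HOXA13 and HOXD8 were beyond the median of their range, and HOXA11, HOXB9 and HOXD13 rose where the median gene did not. No test of HOX genes against genes of like abundance was made.

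**Figure D5:**
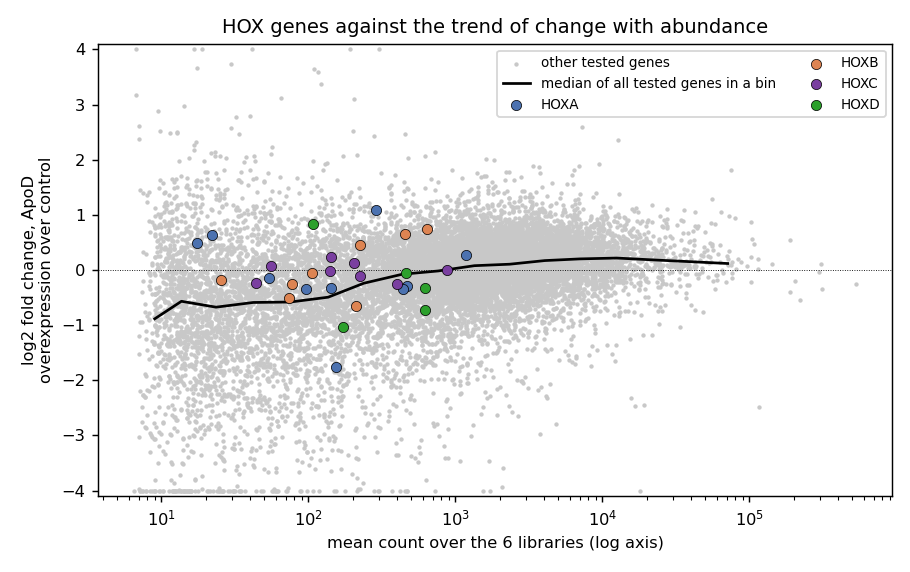
Log2 fold change against mean count (log axis) for all tested genes in grey, drawn at the edge where beyond 4, with the median of all tested genes per abundance bin as a line and HOX genes coloured by cluster. Below a mean count of 200 the line lies under 0 (median −0.56 over those genes), with HOXA13 and HOXD8 below it and HOXD13 far above it.

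Noncoding RNAs of the HOX clusters were lower in 4 of 12 tested, and none was higher (0 of 12) in edgeR. At an unadjusted p under 0.05 there were 7, and DESeq2 called 4. Of all tested genes 24.6% were lower, and of the 861 with a mean count of 50 to 100, the range of the median member here, 336 were lower and 40 higher. HOTAIRM1, a noncoding RNA of the HOXA cluster, had 664, 691 and 733 counts in controls and 480, 386 and 356 with ApoD overexpression (log2 fold change −0.66 ± 0.13 SE, edgeR adjusted p = 0.00159). HAGLR of the HOXD cluster had 94, 114 and 122 counts against 39, 23 and 43 (log2 fold change −1.54 ± 0.31 SE, edgeR adjusted p = 0.00154). HOXA-AS2 and HOXC-AS1 also passed, but not with the abundance trend removed (adjusted p = 0.259 and 0.150). The call of HOXA-AS2 ended without control replicate 1 or 2 or ApoD overexpression replicate 1 or 3 (adjusted p up to 0.117), and that of HOXC-AS1 without control replicate 3 or ApoD overexpression replicate 1 or 3 (up to 0.139). HOXA11-AS had 76, 111 and 106 counts in controls and 56, 52 and 60 with ApoD overexpression, opposite in direction to HOXA11, and its log2 fold change of −0.68 ± 0.28 missed the threshold (edgeR adjusted p = 0.0591), though it passed with library totals (−0.80, adjusted p = 0.0324). HOTAIR, of the HOXC cluster, had 49, 42 and 49 counts against 17, 11 and 36, and also missed it (edgeR adjusted p = 0.0889), except without ApoD overexpression replicate 3 (0.0245). Whether counting used strand is not given in the sources used here. It is therefore not known whether reads of a gene and its antisense partner were kept apart.

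Among 8 tested HOX cofactors, 2 fell and none rose (0 of 8) in edgeR. At an unadjusted p under 0.05 there were 3, and DESeq2 called 2. The 25% called stand beside 48.8% of all tested genes. MEIS3, one of the MEIS cofactors, had 130, 298 and 356 counts in controls and 88, 52 and 80 with ApoD overexpression (log2 fold change −1.72 ± 0.33 SE). The more counted PBX2 had 5210 to 5993 counts in every library and a log2 fold change of 0.06 ± 0.08.

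Polycomb genes rose in 8 of 29 tested members and fell in 5, and Trithorax genes, with their associated factors, rose in 7 of 18 and fell in 4. That is 44.8% and 61.1% called, beside 48.8% of all tested genes (24.2% higher and 24.6% lower). The balance turned with scaling by library totals to 3 and 7 and to 5 and 5, and with the abundance trend removed to 5 and 7 and to 5 and 6. CBX7, a Polycomb reader of methylated histone H3, fell from 353, 709 and 736 counts to 143, 105 and 131 (log2 fold change −2.13 ± 0.25 SE, edgeR adjusted p = 3.94e-05). PCGF1 and CBX8, other Polycomb subunits, rose by 0.81 ± 0.12 and 0.50 ± 0.13 (SE). MEN1 and WDR5, parts of complexes that methylate H3 at active genes, rose by 0.72 ± 0.13 and 0.63 ± 0.10. The demethylase KDM6B, which removes the Polycomb mark, and MLLT3 fell by 0.71 ± 0.11 and 0.83 ± 0.19.

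Retinoic acid switches on anterior HOX genes in the embryo. Of 10 tested genes of its pathway 7 fell and 1 rose, 80% called beside 48.8% of all tested genes (24.6% lower). With library totals or with the abundance trend removed 9 fell. DHRS3, which reduces retinal, had 2384, 2902 and 2678 counts in controls and 562, 516 and 501 with ApoD overexpression (log2 fold change −2.22 ± 0.11 SE). The retinol importer STRA6 and the carrier CRABP2 fell by 1.92 ± 0.14 and 1.86 ± 0.13, and the retinol dehydrogenase RDH10 by 1.19 ± 0.14. The receptor RARA rose by 0.40 ± 0.10. A link between these genes and the HOX changes was not tested.

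Of 22 tested genes that flank the 4 clusters, 6 rose and 7 fell, 59.1% called beside 48.8% of all tested genes. The counts were 4 and 10 with library totals and 3 and 10 with the abundance trend removed. Beside HOXA, SKAP2 and HIBADH fell by 0.71 ± 0.13 and 0.56 ± 0.11 (SE), on either side of a cluster in which HOXA11 rose and HOXA13 fell. Beside HOXB, ATP5MC1 and SNX11 rose by 0.57 ± 0.12 and 0.51 ± 0.11. Of 6 tested genes there, 4 rose and 1 fell (83.3% called). The counts there were 4 and 2 with library totals and 3 and 2 with the abundance trend removed. Beside HOXC, where no HOX gene passed, NFE2 and CALCOCO1 fell by 1.32 ± 0.18 and 0.99 ± 0.13. Beside HOXD, ATF2 fell by 0.42 ± 0.14 and HNRNPA3 rose by 0.32 ± 0.09 (SE). The call of ATF2 ended without control replicate 2 or 3 or ApoD overexpression replicate 2 or 3 (edgeR adjusted p = 0.0562 to 0.0788), and that of HNRNPA3 without control replicate 2 or 3 (0.0542 and 0.0545), with the abundance trend removed (0.214) and with scaling by library totals (0.0527). MTX2 and LNPK, also beside HOXD, stood at 0.17 ± 0.10 and 0.03 ± 0.14 (log2 fold change), neither past the threshold.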

How the data were processed

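The authors deposited read counts per gene symbol for 6 libraries, and FPKM values of the same genes, per the file headers. A SMARTER mRNA-Seq kit was used on total RNA, per the labels' protocols. Aligner, counter and build: not given in the sources used here. Counts were tested with the quasi-likelihood test of edgeR 4.0.16 in R 4.3.3 (TMM scaling, filterByExpr with a minimum count of 10, group as the only term), two-sided, with Benjamini-Hochberg adjustment over 14629 genes and a threshold of 0.05. SE is the log2 fold change divided by the root of F. CPM uses TMM-scaled totals. The test was also run on simulated counts, whose result is not given here. Those counts held far fewer changed genes than these data and no trend of change with abundance. No 2 libraries were copies of each other.

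HOX members and related lists were chosen with earlier results of these data known. Named genes were the HOX members, APOD and up to 4 called members of a list, by size of change; some of these are counted but not reported by name here. Values printed for PBX2, HOXA11-AS, HOTAIR, RARA, CD68, MTX2 and LNPK were chosen after they were seen. Alternatives were DESeq2 size factors, library totals, removal of each library's abundance trend, DESeq2 1.42.0 (Wald test), a fit of all listed genes, a replicate block, each library left out, and limma 3.58.1 on log2(FPKM + 1) or log2(FPKM + 0.1), with at least 1 FPKM in 3 libraries or unfiltered. RefSeq tables gave promoters, for 20 of the 38 members, and gene neighbours only.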

Additional observations from a re-analysis of the deposited data

How the results depend on the processing

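APOD stayed called in every alternative, the number of HOX genes higher, 4, ranged from 3 to 6, and no called HOX gene turned its direction. The number of HOX genes lower, 5, was 3 with the abundance trend removed and 3 to 4 with 1 library left out. HOXA genes lower, 2, came to 1 with the trend removed, with no low-count filter, with the replicate block and with any library left out (1 to 1), and HOXA genes higher to 1 to 2 with 1 library left out. HOXB genes lower, 1, came to 0 with the trend removed and to 0 to 1 with 1 library left out. That number was also 0 in the 3 limma fits on FPKM, 2 of which did not test HOXB3. HOXD genes higher, 1, came to 0 in the 3 limma fits, 2 of which tested only 4 HOXD genes, and to 0 to 1 with 1 library left out. HOXC genes lower, 0, came to 1 in the limma fits on filtered FPKM. Except where fewer genes or libraries were tested, the cause was not tested.

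Same-numbered libraries' deviations from their group correlated at −0.115 to −0.00573, and differently numbered ones' at −0.0536 to 0.0781. No shared deviation was seen, but this cannot show whether libraries were prepared in pairs. Used as a replicate block, the replicate numbers gave 4 HOX genes higher and 4 lower, and 3088 higher and 3260 lower of all genes. Summed levels relative to control, with TMM, library totals and as FPKM, were 1.28, 1.18 and 1.34 for HOXB, 1.01, 0.930 and 0.969 for HOXA, and 0.767, 0.707 and 0.692 for HOXD. Members under about 50 counts per library had SE near 0.4 to 0.6 on the log2 scale, so changes of that size were not detectable at this depth.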

Other observations

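Of 22 tested homeobox genes of the same ANTP class outside the HOX clusters, 6 rose and 3 fell, 40.9% called beside 48.8% of all tested genes. The counts were 5 and 5 with library totals and 8 and 1 with the abundance trend removed. DLX1, a regulator of forebrain and jaw development, had 127, 99 and 111 counts in controls and 237, 251 and 306 with ApoD overexpression (log2 fold change 1.35 ± 0.20 SE, edgeR adjusted p = 0.000196). EN2, a gene of the midbrain and hindbrain boundary, rose by 1.28 ± 0.22 (SE). DLX3, which acts in skin differentiation, fell from 105, 117 and 124 counts to 18, 21 and 11 (log2 fold change −2.66 ± 0.35 SE, edgeR adjusted p = 8.17e-05). DLX2, the neighbour of DLX1, rose by 1.25 ± 0.42, a call that ended when control replicate 2 or ApoD overexpression replicate 2 or 3 was left out (adjusted p = 0.0633 to 0.0950) and in limma on unfiltered FPKM (0.0872).

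Of 35 tested genes of other homeobox classes, 6 rose and 9 fell, 42.9% called beside the same 48.8%. The counts were 4 and 12 with library totals and 9 and 7 with the abundance trend removed. SATB1, a chromatin organiser, fell from 469, 536 and 480 counts to 193, 104 and 155 (log2 fold change −1.61 ± 0.19 SE). The mesenchymal factor ZEB1 rose by 1.20 ± 0.30. POU5F1, whose processed pseudogenes can share its reads, fell by 1.86 ± 0.32.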
